A study of Mus musculus with 50 samples.

Results

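The comparison is KO against WT at 12h: splenic CD8+ T cells of knockout mice (labelled KO) and of wild-type mice (WT), 12 hours after activation. It takes 10 of the 50 libraries of the series, 5 KO and 5 WT, chosen by the genotype and time in the labels, with 1 library for each of 5 mice in each genotype. Mice were 10 weeks old, with the strain background labelled C567BL/6J in both genotypes. Cells were taken from spleens with magnetic anti-CD8a beads and cultured in RPMI medium with 5% FBS. Activation used anti-CD3e coated on the plate and anti-CD28 in solution, each at 2 ug/ml, and libraries were also made at 0h, 2h, 6h and 24h. The unit is the count of reads per gene, given below as CPM (counts scaled to library size with edgeR's TMM factors), and differences are log2 KO minus WT.

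Activation of a CD8+ T cell through its antigen receptor and CD28 switches on immediate early transcription factors within hours, then cytokines such as interferon gamma and the transporters and enzymes that feed growth. T-bet (Tbx21) and Eomes direct the effector programme. Sterol synthesis, fatty acid synthesis and the mitochondrial respiratory chain are parts of metabolism that T cells adjust as they leave quiescence.

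The 10 libraries held 18699720 to 31293872 counted reads, with a median of 22219467.5. WT mice 1 and 4 stood apart from the other libraries. The summed level of immature thymocyte genes was 4635 CPM in WT mouse 1 and 3146 in WT mouse 4, with 1387 to 1519 in WT mice 2, 3 and 5 and 1845 to 2098 in KO. For G2 and mitosis genes the sum was 3268 and 2173 CPM in WT mice 1 and 4, 532 to 550 in the other WT mice and 505 to 1307 in KO, where mouse 5 was the highest. Mature CD8 T cell genes went the other way, with 6276 CPM in WT mouse 1, 9193 in WT mouse 4 and 10899 to 12529 in the other 8 libraries. Cd8a, the chain the beads bind, was at 266 CPM in WT mouse 1 and 435 in WT mouse 4 and at 632 to 857 in the other 8 libraries. Dntt, the DNA polymerase that adds bases at receptor joints in thymocytes, was at 311 and 144 CPM in WT mice 1 and 4 and under 1 CPM elsewhere. Each result is therefore given with all mice and again without WT mice 1 and 4. These mice were set aside for their profile in the same data, so the second comparison is a choice made on measured values. Because bulk libraries were made, fewer cells of a type and less RNA per cell cannot be told apart.

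**Figure D1:**
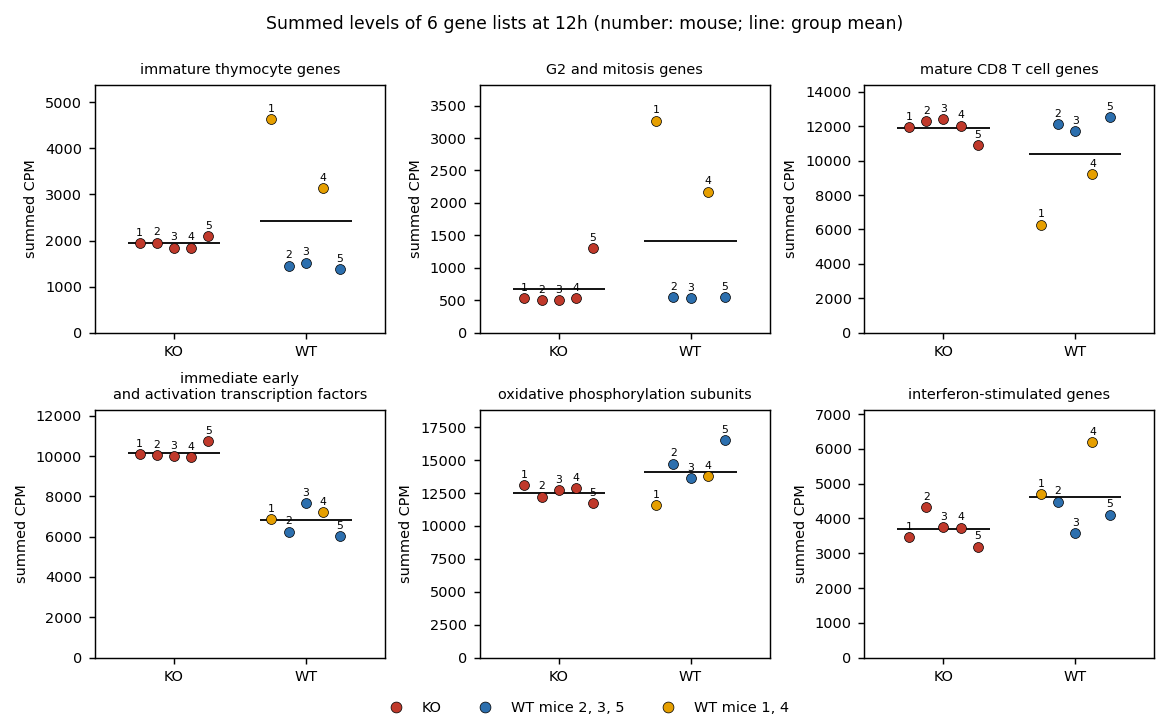
Summed CPM of 6 gene lists in each 12h library, KO on the left and WT on the right of each panel, with the mouse number above each point and the group mean as a line. WT mice 1 and 4 (orange) are the highest for immature thymocyte genes and for G2 and mitosis genes and the lowest WT mice for mature CD8 T cell genes, while the activation transcription factors separate all 5 KO libraries from all 5 WT libraries.

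With all mice, 11517 genes were tested and 29.9% were called: 1626 (14.1%) were higher and 1813 (15.7%) lower in KO by edgeR's quasi-likelihood test at a Benjamini-Hochberg adjusted p under 0.05. With these 2 mice left out, 11680 genes were tested and 53.3% were called, 3150 (27.0%) higher and 3081 (26.4%) lower. The calls with all mice numbered 2245, 2256 and 2212 without KO mouse 1, 3 or 5. The common dispersion, the squared coefficient of variation between mice, was 0.114 with all mice and 0.0213 without WT mice 1 and 4. Of the genes higher with all mice, 1582 were also higher without the 2 mice, and of those lower, 1535 were also lower. No gene was called in opposite directions. The share of calls that were higher was 47.3% with all mice under TMM scaling and 33.5% under library totals.

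**Figure D2:**
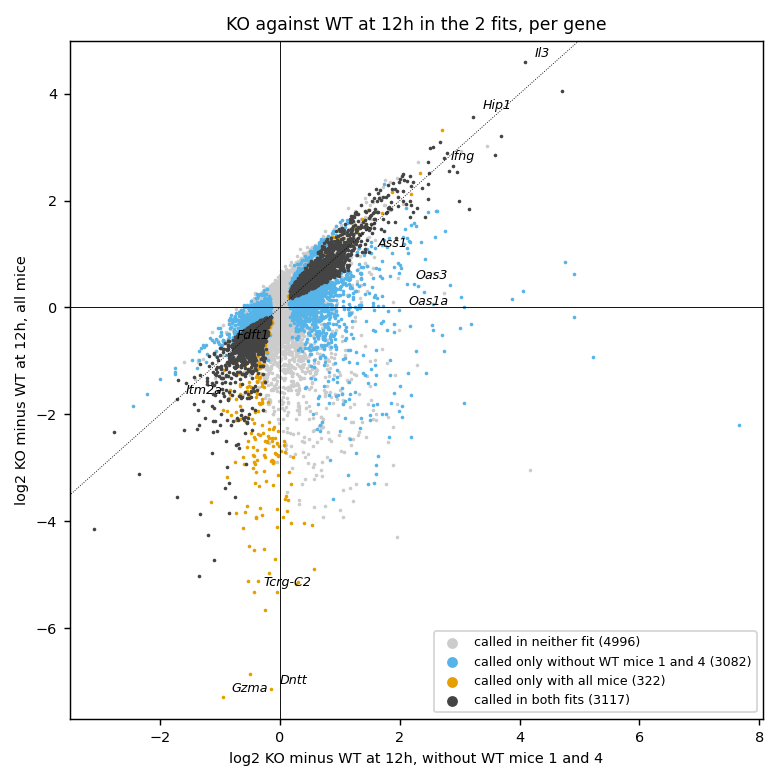
Log2 KO minus WT per gene at 12h with all mice (vertical axis) against the value without WT mice 1 and 4 (horizontal axis), coloured by the calls; the dotted line marks equal values. Most calls of both fits lie along the line, while Gzma, Dntt and Tcrg-C2 are near 0 on the horizontal axis and below -5 on the vertical axis.

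GC content moved with the difference. In the fit without WT mice 1 and 4, the median log2 difference ran from -0.238 in the fifth of genes with the lowest GC content (median 43.0%) to 0.313 in the highest (58.1%). The contrast between high-GC and low-GC genes lay between 0.1 and 0.225 on the log2 scale in the 5 KO libraries. It was -0.006 in WT mouse 1 and 0.11, within the KO range, in WT mouse 4. In WT mice 2, 3 and 5 it was -0.414, -0.103 and -0.443. WT mouse 3 was the nearest of these 3 WT mice to KO in 85.6% of the genes called higher and 85.3% of those called lower. A fit with offsets for GC content and transcript length was therefore added after seeing the data, with all mice and without the 2 mice. Of the 11517 genes tested in both comparisons, 1133 were higher and 1053 lower in all 4 fits, and these are called "in all 4 fits" below. With the offsets alone, 12.1% of genes were higher and 15.3% lower with all mice, and 21.8% and 26.4% without WT mice 1 and 4. The part of this trend in any single gene's difference was not tested.

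**Figure D3:**
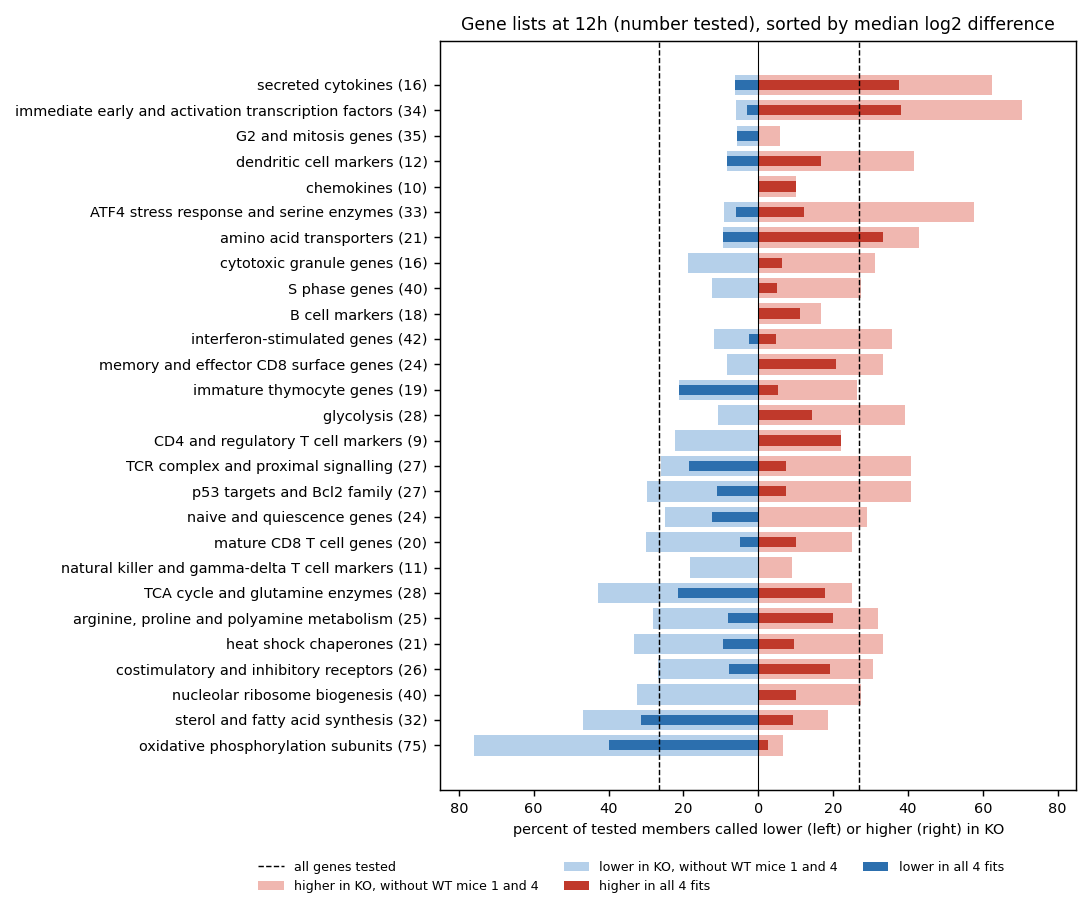
Share of the tested members of each gene list called higher (red, right) or lower (blue, left) in KO at 12h, pale without WT mice 1 and 4 and dark in all 4 fits; dashed lines give the shares over all genes tested without WT mice 1 and 4. The longest pale bars are those of activation transcription factors (70.6%), cytokines (62.5%) and the ATF4 response (57.6%) on the right and of oxidative phosphorylation (76.0%), sterol and fatty acid synthesis (46.9%) and the tricarboxylic acid cycle (42.9%) on the left, while several other lists also pass a line. The dashed lines apply to the pale bars only.

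Cytokine genes were among the largest differences. Of 20 secreted cytokines 16 were tested, and 7 were higher and 1 lower in KO with all mice, where 14.1% of all genes were higher. Leaving out WT mice 1 and 4, 10 were higher and 1 lower, against 27.0% of all genes higher. Ifng, Il3, Csf2, Ltb, Lif and Tgfb1 were higher and Tnfsf10 was lower in all 4 fits. The median difference of the list was 0.88 with all mice and 0.93 without WT mice 1 and 4, beside -0.065 and 0.002 over all genes. Leaving out 1 more library gave 6 to 8 higher with all mice and 6 to 12 without WT mice 1 and 4, the lowest without WT mouse 2 or WT mouse 5.

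Ifng (ENSMUSG00000055170), which encodes interferon gamma, was at 2489, 407, 669, 1103 and 1513 CPM in KO mice 1 to 5 and at 17.7, 224, 148, 125 and 212 CPM in WT mice 1 to 5. The groups did not overlap, and KO mouse 1 was the highest library and WT mouse 1 the lowest. Its log2 difference was 3.09 ± 0.67 (SE, adjusted p = 0.00873, edgeR) with all mice and 2.67 ± 0.58 (adjusted p = 0.00539) without WT mice 1 and 4. Il3 (ENSMUSG00000018914), a growth factor for blood cell progenitors and mast cells, was at 32.4, 5.24, 29, 12 and 119 CPM in KO and 0.0472, 2.15, 2.56, 1.2 and 2.24 CPM in WT, again without overlap. KO mouse 5 was the highest and WT mouse 1 held almost no Il3 reads. Its difference was 4.59 ± 0.98 (adjusted p = 0.00783) and 4.10 ± 1.10 (adjusted p = 0.0139). Csf2, which encodes GM-CSF, was at 17, 3.81, 9.82, 7.47 and 47.7 CPM in KO and 0.236, 2.99, 2.29, 1.75 and 3.44 CPM in WT, with a difference of 3.00 and 2.56. Ccl1, a chemokine that draws CCR8-bearing cells, was at 260, 59.5, 100, 133 and 280 CPM in KO and 18, 46.5, 30.1, 28.8 and 55.4 CPM in WT. It was the only one of 9 tested chemokines called with all mice (2.22, adjusted p = 0.00697). When 1 of WT mice 2, 3 and 5 was left out as well, leaving 2 WT mice, Il3, Csf2 and Ccl1 lost their call, with adjusted p up to 0.0834, 0.118 and 0.0727.

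Lif and Tgfb1 varied less within the groups. Lif (ENSMUSG00000034394), a cytokine of the interleukin 6 family, was at 138, 157, 159, 150 and 206 CPM in KO and 15.4, 46.3, 47.3, 76 and 40.4 CPM in WT. Its difference was 1.84 ± 0.33 (adjusted p = 0.00403) and 1.86 ± 0.13 (adjusted p = 9.88e-05). Tgfb1 (ENSMUSG00000002603), which encodes the inhibitory cytokine TGF-beta 1, was at 175, 157, 161, 172 and 207 CPM in KO and 53.9, 61.3, 92.9, 72.5 and 54.6 CPM in WT, a difference of 1.38 ± 0.16 and 1.33 ± 0.17. Tnfsf10, the death ligand TRAIL, was at 21.5, 26.1, 18, 25.5 and 25.5 CPM in KO and 47.3, 34.9, 33.5, 46.2 and 35.7 CPM in WT, below every WT library (-0.76 and -0.57). Not every effector gene was called, although those that follow differed in the same direction in both fits. Il2, Tnf and Gzmb, named here after their values were seen, did not pass in either fit: Il2 differed by 1.21 (adjusted p = 0.155) and 0.87 (0.105), although it passed without WT mice 1 and 4 when offsets for GC content and length were used (1.28, adjusted p = 0.0303), Tnf by 0.69 (0.236) and 0.22 (0.139), and Gzmb by 1.11 (0.308) and 0.58 (0.119). Gzmb, granzyme B of the cytotoxic granules, was at 6.51 CPM in WT mouse 1 and 304 to 804 in the other WT mice, within reach of the 672 to 1682 in KO.

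**Figure D4:**
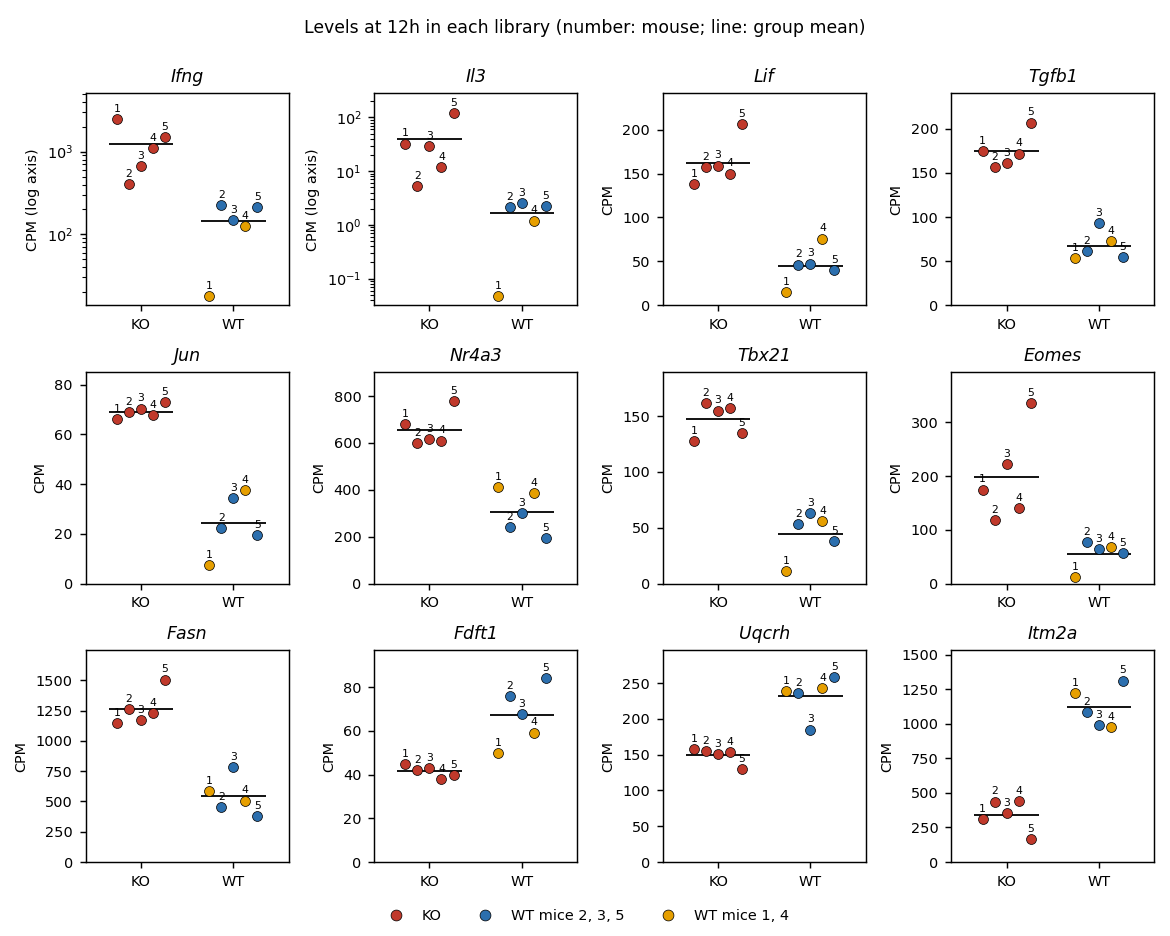
CPM of 12 genes in each 12h library, with the mouse number above each point and the group mean as a line; the vertical axes of Ifng and Il3 are logarithmic and the others start at 0. The KO and WT libraries do not overlap in any of the 12 panels, the KO libraries being lower for Fdft1, Uqcrh and Itm2a and higher for the other 9 genes. The 12 were chosen among called genes, so this is in part fixed by that choice. Over all genes tested, the KO libraries lay above every WT library in 14.9% and below every WT library in 13.2%.

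Transcription factors of activation were mostly higher. Of 34 tested, 16 (47.1%) were higher and 2 lower with all mice, where 14.1% of all genes were higher, and 24 (70.6%) were higher and 2 lower without WT mice 1 and 4, where 27.0% were. In all 4 fits 13 were higher, among them Jun, Junb, Fosl2, Egr2, Egr3, Nr4a3, Irf8, Myc, Nfkb1, Nfkb2, Prdm1, Tbx21 and Eomes, and 1 was lower, Id3. Of all 11517 genes, 1133 were higher and 1053 lower in all 4 fits. Summed over the list, KO libraries were at 9935 to 10723 CPM and WT libraries at 6045 to 7661, WT mouse 3 being the highest WT library. The median difference was 0.75 with and without WT mice 1 and 4. With offsets for GC content and length it was 0.55 with all mice and 0.49 without WT mice 1 and 4. The median GC content of this list (55.2%) was the highest of all lists. Leaving out 1 more library gave 12 to 19 higher with all mice and 23 to 25 without WT mice 1 and 4.

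Jun, a subunit of AP-1, was at 66, 68.8, 70.3, 67.8 and 72.8 CPM in KO and 7.59, 22.2, 34.3, 37.7 and 19.4 CPM in WT (1.51 and 1.45). KO libraries lay within a narrow band, while WT libraries spread from mouse 1, the lowest, to mouse 4. Nr4a3 (ENSMUSG00000028341), an orphan nuclear receptor induced by the antigen receptor, was at 679, 600, 616, 610 and 778 CPM in KO and 412, 242, 301, 387 and 194 CPM in WT. Its difference was 1.10 ± 0.20 (adjusted p = 0.00426) with all mice and 1.42 ± 0.14 (adjusted p = 0.000551) without WT mice 1 and 4, which were the 2 highest WT libraries. Irf8 (1.23 and 1.06), Junb (1.17 and 1.18), Nfkb1 (0.92 and 0.85), Nfkb2 (0.87 and 0.98) and Egr2 (0.69 and 0.71) were higher with adjusted p of at most 0.0047 in both fits. Myc, a driver of growth and metabolism, named after its values were seen, was at 1214, 1178, 1255, 1226 and 1210 CPM in KO and 275, 588, 859, 534 and 514 CPM in WT (1.14 and 0.90). Nfatc1, also named afterwards, was called only without WT mice 1 and 4 (1.21, adjusted p = 0.000692), since these held 423 and 292 CPM against 122 to 198 in the other WT mice and 315 to 385 in KO.

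Both T-box factors of effector CD8 cells were higher. Tbx21 was at 128, 162, 155, 157 and 135 CPM in KO and 11, 53.4, 63.5, 56.3 and 37.9 CPM in WT, with differences of 1.73 ± 0.37 (adjusted p = 0.008) and 1.51 ± 0.16 (adjusted p = 0.000586). Eomes was at 175, 118, 223, 140 and 336 CPM in KO and 12.5, 77.4, 63.9, 67.9 and 56.1 CPM in WT (1.83 and 1.59), with KO mouse 5 the highest and WT mouse 1 the lowest. Runx2, a Runt-family factor, was at 48.8, 16.1, 28.3, 30.4 and 51.5 CPM in KO and 2.74, 5.5, 9.39, 5.39 and 8.7 CPM in WT (2.47 and 2.17). Of 24 memory and effector surface genes and regulators, 6 (25%) were higher with all mice, against 14.1% of all genes. Without WT mice 1 and 4, 8 (33.3%) were higher and 2 (8.3%) lower, against 27.0% and 26.4% of all genes. The latter 8 became 3 without WT mouse 3 and 4 without WT mouse 2. Ly6c2 (1.50 and 1.56) was among the 5 higher in all 4 fits, against 1133 of all 11517 genes. In the fit without the 2 WT mice, leaving out WT mouse 3 as well took its adjusted p to 0.0812, past the threshold.

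Among 26 costimulatory and inhibitory receptors, 6 (23.1%) were higher and 6 lower with all mice, against 14.1% and 15.7% of all genes, and 8 (30.8%) were higher and 7 (26.9%) lower without WT mice 1 and 4, near the 27.0% and 26.4% of all genes. With all mice the higher count was 3 without KO mouse 1, 3 or 5 or WT mouse 4 and the lower count 3 without KO mouse 5, and without WT mice 1 and 4 the higher count was 4 without WT mouse 2 or 5 and the lower count 4 without WT mouse 5. Lag3, an inhibitory receptor for MHC class II, was at 106, 156, 131, 159 and 152 CPM in KO and 37.5, 57.9, 77, 74.6 and 61.1 CPM in WT (1.19 and 1.11). Havcr2, which encodes TIM-3, was at 15, 4.96, 5.19, 6.45 and 25.9 CPM in KO and 0.283, 1.99, 3.36, 1.52 and 3.02 CPM in WT (2.50 and 2.06). Without KO mouse 5 its adjusted p with all mice was 0.0554, and without WT mice 1 and 4 it lost its call in 3 of 8 fits that left out 1 more library, with adjusted p up to 0.0963 (without WT mouse 2). Cd28, the receptor engaged in the culture, was lower, at 435, 553, 466, 497 and 350 CPM in KO and 906, 774, 779, 731 and 769 CPM in WT (-0.78 and -0.75). Of 27 genes of the T cell receptor complex and its proximal signalling, 3 (11.1%) were higher and 5 (18.5%) lower with all mice and 11 (40.7%) higher and 7 (25.9%) lower without WT mice 1 and 4, near the shares of all genes except for the last higher count, which was 6 without KO mouse 4 or WT mouse 5 and 7 without WT mouse 2. Cd3g, a CD3 chain, was at 275, 309, 273, 295 and 200 CPM in KO and 477, 447, 385, 483 and 543 CPM in WT (-0.79 and -0.76), and Rasgrp1, which activates Ras below the receptor, differed by -0.93 and -0.47. Fyn, a Src-family kinase, was higher (0.51 and 0.43), at 536, 521, 523, 535 and 516 CPM in KO and 338, 338, 485, 345 and 346 CPM in WT, with WT mouse 3 close to KO.

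The genes with the largest differences, several of them cytokines named above, shared an order of libraries. Of the 15 called genes with the largest higher difference with all mice and at least 5 CPM, 14 were called in all 4 fits. Of all 11517 genes, 1133 were higher in all 4 fits. In 12 the KO libraries lay above every WT library, as in 14.9% of all genes. These genes were picked for their difference in the same libraries, so both counts are in part fixed by that choice. KO mice 1 and 5 were the 2 highest KO libraries in 12 of the 15 and KO mouse 2 was the lowest in all 15. The share of all genes with this order is not given here, so the order is not shown to be particular to these genes. Hip1, an adaptor of clathrin coats, was at 8.07, 3.44, 4.19, 8.07 and 12.7 CPM in KO and 0.472, 1.08, 0.693, 0.277 and 0.521 CPM in WT (3.57 and 3.23). Setbp1, which encodes a SET-binding protein, was at 23.1, 11.6, 12.3, 13 and 21.8 CPM in KO and 0.236, 3.35, 3.52, 1.43 and 1.77 CPM in WT (2.99 and 2.50). Crim1 (2.41 and 2.01) and Il1rl1, the receptor for interleukin 33 (2.35 and 2.23), were also among them, at 10.9, 2.57, 4.75, 4.08 and 12.1 CPM in KO and 0.802, 1.75, 1.07, 1.52 and 1.56 CPM in WT for Il1rl1.

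The largest lower differences with all mice depended on WT mice 1 and 4. In all 15 genes with the largest lower difference with all mice, WT mice 1 and 4 were the 2 highest of the 10 libraries, and 2 of the 15 were also called without these mice. The genes were ranked on a difference that these 2 mice enter, so both counts are in part fixed by that choice. Of all 1813 genes called lower with all mice, 84.7% were also called lower without WT mice 1 and 4. Gzma, granzyme A, was at 937, 6.3, 3.36, 739 and 2.66 CPM in WT mice 1 to 5 and 0.874, 3.58, 0.48, 0.789 and 4.84 in KO, so its difference of -7.29 (adjusted p = 0.0196) became -0.95 (adjusted p = 0.279). Dntt (-7.14 and -0.16) and Tcrg-C2, a constant segment of the gamma receptor chain (-5.32 and -0.43), likewise lost their call. With all mice each of the 3 also lost its call without 1 of several KO libraries, with adjusted p up to 0.0557. Itm2a (ENSMUSG00000031239), a membrane protein of activated T cells and thymocytes, did not depend on them. It was at 308, 437, 353, 442 and 167 CPM in KO and 1225, 1085, 993, 979 and 1313 CPM in WT, with differences of -1.71 ± 0.24 (adjusted p = 0.00211) and -1.73 ± 0.28 (adjusted p = 0.00142).

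The list of sterol and fatty acid synthesis was lower more often than higher. Of 32 tested genes of both pathways, 3 were higher and 12 lower with all mice, against 14.1% and 15.7% of all genes, and 6 were higher and 15 lower without WT mice 1 and 4, against 27.0% and 26.4%. The higher share was below that of all genes in both comparisons. The 3 higher in all 4 fits were Fasn, Acaca and Acly, which make fatty acids from citrate. Among the 10 lower in all 4 fits were Hmgcs1, Pmvk, Fdps, Fdft1, Cyp51, Tm7sf2, Msmo1, Nsdhl and Insig1, which make cholesterol or, for Insig1, restrain it. Of all 11517 genes, 1133 were higher and 1053 lower in all 4 fits. Leaving out 1 more library gave 9 to 15 lower with all mice and 10 to 15 without WT mice 1 and 4.

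Fasn (ENSMUSG00000025153), fatty acid synthase, was at 1147, 1260, 1168, 1227 and 1506 CPM in KO and 585, 452, 784, 507 and 380 CPM in WT, with WT mouse 3 the highest WT library. Its difference was 1.22 ± 0.18 (adjusted p = 0.00237) and 1.23 ± 0.22 (adjusted p = 0.00193). Acaca, the carboxylase before it (0.82 and 0.69), and Acly, which supplies acetyl-CoA (0.47 and 0.48), were named after their values were seen. Fdft1 (ENSMUSG00000021273), squalene synthase, was at 44.8, 42.2, 42.8, 38.1 and 39.9 CPM in KO and 49.7, 76, 67.6, 59.2 and 84.3 CPM in WT, lower in KO by 0.70 ± 0.13 (adjusted p = 0.00511) and 0.87 ± 0.08 (adjusted p = 0.000431). Msmo1 was at 84.5, 75.5, 77.8, 75.8 and 75.8 CPM in KO and 116, 147, 129, 122 and 151 CPM in WT (-0.77 and -0.87), and Fdps differed by -0.61 and -0.60. Hmgcs1 (ENSMUSG00000093930), which makes HMG-CoA at the head of the pathway, was at 274, 257, 256, 255 and 251 CPM in KO and 366, 380, 383, 318 and 362 CPM in WT (-0.48 and -0.54), with KO mouse 1 the highest KO library. Its promoter is shown because, of the 19 members of the list with a single RefSeq promoter entry, it alone held a match to the sterol regulatory element TCACNCCAC (or GTGGNGTGA on the other strand), a motif found in 1.05% of 32851 promoters. The 250 bases before its start are at chr13:119690101-119690350 (GRCm38.p6, plus strand, RefSeq), with the match in capitals.
Hmgcs1: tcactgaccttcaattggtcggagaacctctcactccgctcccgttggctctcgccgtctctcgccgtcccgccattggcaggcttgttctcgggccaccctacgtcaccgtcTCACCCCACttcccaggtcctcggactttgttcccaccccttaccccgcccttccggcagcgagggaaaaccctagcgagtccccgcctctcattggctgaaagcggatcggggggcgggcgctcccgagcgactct
A match describes the letters only. It was held by 1 of the 10 members lower without WT mice 1 and 4 that have such an entry and by 0 of the 4 higher ones.

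The respiratory chain was lower as a group. Of 75 nuclear-encoded subunits of oxidative phosphorylation, 34 (45.3%) were lower and 3 (4%) higher with all mice. Of all genes 15.7% were lower and 14.1% higher. Without WT mice 1 and 4, 57 (76.0%) were lower and 5 (6.7%) higher, against 26.4% and 27.0% of all genes. In all 4 fits 30 were lower and 2, Uqcrfs1 and Atp5d, higher, against 1053 lower and 1133 higher of all 11517 genes. The median difference was -0.35 with all mice and -0.45 without WT mice 1 and 4. With offsets for GC content and length it was -0.30 and -0.37. These genes are short, with a median transcript length of 608 bases, and have a median GC content of 51.4%. The count with all mice was 23 without KO mouse 2, 3, 4 or 5 and 53 without WT mouse 1, and without WT mice 1 and 4 it ran from 45 (also without WT mouse 5) to 58. By complex, 20 of 36 subunits of complex I were lower with all mice and 32 without WT mice 1 and 4, and 6 and 8 of 10 of complex IV were, with no higher member in either complex. Complex III had 2 of 9 lower and 2 higher with all mice and 6 lower and 3 higher without WT mice 1 and 4. ATP synthase had 5 of 15 and then 9 lower, and 1 higher in both comparisons. Complex II, the succinate dehydrogenase, had 1 of 4 lower with all mice and 2 lower and 1 higher without WT mice 1 and 4.

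Uqcrh (ENSMUSG00000063882), a hinge subunit of complex III, was at 158, 155, 151, 154 and 130 CPM in KO and 239, 236, 185, 243 and 258 CPM in WT. KO libraries lay below every WT library, with WT mouse 3 the nearest, and the difference was -0.63 ± 0.10 (adjusted p = 0.00254) and -0.59 ± 0.11 (adjusted p = 0.00154). Ndufb11 of complex I was at 77.1, 70.2, 67.5, 72.6 and 60.9 CPM in KO and 98.1, 105, 91.5, 110 and 121 CPM in WT (-0.59 and -0.60). Atp5d, the delta subunit of ATP synthase, went against the list, at 344, 318, 359, 352 and 322 CPM in KO and 173, 181, 252, 235 and 187 CPM in WT (0.72 in both fits). The summed level of the list overlapped between the groups, with 11723 to 13122 CPM in KO, 11604 in WT mouse 1 and 13658 to 16535 in the other 4 WT mice. The files list 0 genes of the mitochondrial genome, so its transcripts were not analysed here.

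Enzymes of the tricarboxylic acid cycle and glutamine use included members called in each direction. Of 28, 6 (21.4%) were higher and 10 (35.7%) lower with all mice, against 14.1% and 15.7% of all genes, and 7 (25%) higher and 12 (42.9%) lower without WT mice 1 and 4, against 27.0% and 26.4%. Ogdh, of the 2-oxoglutarate dehydrogenase complex, was at 376, 399, 398, 393 and 411 CPM in KO and 204, 209, 297, 228 and 176 CPM in WT (0.82 and 0.80), and Dlat, of pyruvate dehydrogenase, was higher by 0.68 and 0.64. Mdh1, the cytosolic malate dehydrogenase, was at 225, 214, 222, 229 and 195 CPM in KO and 330, 341, 285, 352 and 385 CPM in WT (-0.64 in both fits). The lower count with all mice was 5 without KO mouse 5 and 6 without KO mouse 2, and the higher count without WT mice 1 and 4 was 4 without WT mouse 2.

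Amino acid transporters were more often higher than lower. Of 20 tested with all mice, 8 (40%) were higher and 2 (10%) lower, against 14.1% and 15.7% of all genes. Of 21 tested without WT mice 1 and 4, 9 (42.9%) were higher and 2 (9.5%) lower, against 27.0% and 26.4%. The median difference was 0.31 with all mice and 0.37 without WT mice 1 and 4. With offsets for GC content and length it was 0.21 and 0.1. Slc7a5, the light chain of the large neutral amino acid transporter, was at 367, 336, 359, 374 and 396 CPM in KO and 120, 134, 210, 148 and 129 CPM in WT, a difference of 1.31 ± 0.15 (adjusted p = 0.00154) and 1.22 ± 0.15 (adjusted p = 0.000695). Its heavy chain Slc3a2 was higher by 0.61 and 0.51, and Slc7a1, a cationic amino acid transporter that carries arginine and lysine, by 0.84 and 0.77. WT mouse 3 was the highest WT library for Slc7a1, at 312 CPM against 220 to 233 in the other WT mice and 390 to 496 in KO. In the list of 25 genes for arginine, proline and polyamine use, 5 were higher and 4 lower with all mice and 8 higher and 7 lower without WT mice 1 and 4, shares near those of all genes in the latter. The 4 lower calls with all mice were lost without KO mouse 2 or KO mouse 3. Ass1, which makes argininosuccinate from citrulline, was at 17.7, 20.7, 24, 19.7 and 21.5 CPM in KO and 14.1, 6.5, 9.92, 14.2 and 5.89 CPM in WT (1.03 and 1.48). Srm, spermidine synthase, was at 612, 513, 596, 595 and 604 CPM in KO and 106, 284, 390, 251 and 285 CPM in WT (1.15 and 0.87). Sat1, which acetylates polyamines for export, passed only without WT mice 1 and 4 (-0.95, adjusted p = 0.000514, against -0.62, adjusted p = 0.0786).

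Of 28 glycolytic genes, 5 (17.9%) were higher and 1 lower with all mice, against 14.1% and 15.7% of all genes, and 11 (39.3%) higher and 3 lower without WT mice 1 and 4, against 27.0% and 26.4%. Hk2, hexokinase 2, was at 179, 170, 173, 173 and 228 CPM in KO and 31.9, 66.8, 103, 53.7 and 63.3 CPM in WT (1.53 and 1.25), and Pfkl, a phosphofructokinase, differed by 0.71 and 0.55. The higher count with all mice was 3 without KO mouse 1, 3, 4 or 5 and 9 without WT mouse 1, and the count without WT mice 1 and 4 was 7 without WT mouse 2. Of genes of the ATF4 response and serine synthesis, 8 of 32 (25%) were higher and 2 lower with all mice, against 14.1% of all genes higher, and 19 of 33 (57.6%) higher and 3 lower without WT mice 1 and 4, against 27.0%. With all mice the higher count was 4 or 5 without any 1 KO mouse or WT mouse 4. Shmt2, mitochondrial serine hydroxymethyltransferase, was at 721, 687, 741, 731 and 758 CPM in KO and 247, 404, 561, 386 and 361 CPM in WT (0.89 and 0.72). Ddit3, the stress factor CHOP, was lower (-0.62 and -0.51), against most of the list. Sesn2, which restrains mTORC1, was called only without WT mice 1 and 4 (1.84, adjusted p = 0.00112), with 37.1 and 24.5 CPM in these 2 mice, 5.18 to 10.3 in the other WT mice and 18.2 to 36 in KO.

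Interferon-stimulated genes gave different counts in the 2 comparisons. Of 42, 3 (7.1%) were higher and 3 lower with all mice, below the 14.1% and 15.7% of all genes, and 15 (35.7%) higher and 5 (11.9%) lower without WT mice 1 and 4, against 27.0% and 26.4%. With all mice the 3 higher calls were lost without KO mouse 1 or 5, and 1 lower call was left without KO mouse 1, 3, 4 or 5 or WT mouse 4. Leaving out WT mouse 3 or 5 in addition to WT mice 1 and 4 gave 8 and 9 higher, and the 5 lower calls were lost without WT mouse 2 or 5. Oas3 (ENSMUSG00000032661), an oligoadenylate synthetase of the antiviral response, was at 19.2, 19.5, 19.3, 18.7 and 46 CPM in KO and 42.5, 6.02, 6.03, 31.2 and 4.95 CPM in WT. WT mice 1 and 4 lay among or above the KO libraries and the other WT mice below them, so the difference was 0.44 ± 0.64 (adjusted p = 0.627) with all mice and 2.11 ± 0.35 (adjusted p = 0.00156) without them. Oas1a showed the same order at lower levels, 3.14, 1.93, 3.58, 2.55 and 6.7 CPM in KO and 8.16, 0.956, 0.8, 7.75 and 0.938 CPM in WT (-0.05 and 1.99). Gbp4, a guanylate-binding protein induced by interferon gamma, was lower in all 4 fits (-0.64, adjusted p = 0.0189, and -0.50, adjusted p = 0.0256), with 262, 318, 273, 281 and 196 CPM in KO and 412, 464, 313, 532 and 350 CPM in WT. Without WT mice 1, 4 and 2 its adjusted p was 0.12.

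The promoters of Oas1a and Oas3 are shown because both hold a match to the interferon-stimulated response element, here GAAA, any 2 bases, then GAAA, on either strand. Of the 25 listed interferon-stimulated genes with a single RefSeq promoter entry, 14 (56%) held the motif in the 250 bases before the start, against 2.98% of all 32851 promoters. The holders went both ways without WT mice 1 and 4: 5 of 11 higher members and 3 of 3 lower members held it, the latter being Gbp2, Gbp5 and Irgm1. Both windows are on the minus strand of chromosome 5 (GRCm38.p6, RefSeq), with the matches in capitals. Oas1a lies at chr5:120907526-120907775, with 2 overlapping matches that start 20 and 14 bases before the gene's start. Oas3 lies at chr5:120777660-120777909, with 1 match 75 bases before it.
Oas1a: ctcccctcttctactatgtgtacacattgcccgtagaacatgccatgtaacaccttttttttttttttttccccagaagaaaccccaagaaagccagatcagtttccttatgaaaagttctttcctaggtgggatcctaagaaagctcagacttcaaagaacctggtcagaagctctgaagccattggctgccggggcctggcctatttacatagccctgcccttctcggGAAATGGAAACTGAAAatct
Oas3: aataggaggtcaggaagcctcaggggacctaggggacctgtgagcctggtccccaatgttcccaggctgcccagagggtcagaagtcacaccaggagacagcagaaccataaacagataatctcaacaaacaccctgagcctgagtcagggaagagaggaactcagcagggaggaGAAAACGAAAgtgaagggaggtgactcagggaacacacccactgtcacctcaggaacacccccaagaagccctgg

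Markers of other cell types gave these values at 12h. B cell markers summed to 1167 to 2093 CPM in KO, 970 to 1268 in WT mice 2, 3 and 5, 728 in WT mouse 1 and 1126 in WT mouse 4. Of 18 tested, 2 (11.1%), Ighm and Igkc, were higher with all mice, against 14.1% of all genes. Without WT mice 1 and 4, 3 (16.7%) were higher, against 27.0%. Cd79a, a defining B cell chain, was at 1.29 to 6.06 CPM in all 10 libraries. Dendritic cell markers summed to 876 to 1050 CPM in KO and 310 to 581 in WT, of which Irf8, also a member of the transcription factor list, made up 675 to 802 CPM in KO and 146 to 404 in WT. Of 12 tested, 3 (25%) were higher and 1 (8.3%) lower with all mice, against 14.1% and 15.7% of all genes. Without WT mice 1 and 4, 5 (41.7%) were higher and 1 (8.3%) lower, against 27.0% and 26.4%. Ccr9 was lower in all 4 fits. Irf8 and Zbtb46, a transcription factor of conventional dendritic cells, were higher in all 4 fits, with Zbtb46 at 10.1, 5.79, 8.64, 8.17 and 17.5 CPM in KO and 0.943, 3.75, 4.64, 2.49 and 2.71 CPM in WT (1.79 and 1.44). Monocyte, macrophage and neutrophil markers summed to 14.4 to 38.7 CPM in KO, 150 in WT mouse 1, 60.8 in WT mouse 4 and 16.8 to 30.1 in the other WT mice. Natural killer and gamma-delta markers summed to 15.2 to 30.1 CPM in KO, 182 and 237 in WT mice 1 and 4 and 23.4 to 28 in the other WT mice. CD4 and regulatory T cell markers summed to 1321 to 1498 CPM in KO and 1074 to 1219 in WT mice 2, 3 and 5. WT mice 1 and 4 held 1799 and 1386. Of 9 tested, 2 (22.2%) were higher and 2 (22.2%) lower in each comparison, beside the shares of all genes given above. Cd40lg and Il2ra were higher in all 4 fits and 0 members lower. Erythroid and platelet markers summed to 550 to 862 CPM in KO and 510 to 735 in WT. The part of these cells in the differences above was not tested.

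Whether a difference was particular to 12h was asked with 1 fit over the 5 times, as KO minus WT at 12h minus the mean of KO minus WT at 0h, 2h, 6h and 24h. With all 50 libraries 143 genes (1.08% of 13294) were more positive at 12h and 17 (0.128%) more negative. Since each mouse gave cells for every time, the same contrast was fitted with the mouse as a block, which gave 263 and 54. The values that follow are from the fit without the block, which counted libraries of the same mouse as independent. The contrast without WT mice 1 and 4 gave 1230 (9.28%) and 476 (3.59%), and 797 and 901 under library totals. The calls with all mice, 160 in both directions, numbered 13 to 80 without any 1 KO mouse or without WT mouse 2 or 5, and 350 and 624 without WT mouse 1 or 3. Those without WT mice 1 and 4, 1706, numbered 1137, 515 and 430 when KO mouse 4, WT mouse 2 or WT mouse 5 was also left out and 4142 when WT mouse 3 was. With offsets for GC content and length the calls numbered 49 with all mice and 1071 without WT mice 1 and 4. The genes named next are from the fits without offsets. Fasn was more positive at 12h with all mice (1.33, adjusted p = 0.00265) and without WT mice 1 and 4 (1.33, adjusted p = 0.00034). Jade2, a subunit of a histone acetyltransferase complex (1.00 and 1.20), Rapgef1, an exchange factor for Rap1 (0.90 and 1.09), and Ogdh (0.87 and 1.00) were too. Kdsr, which reduces 3-ketosphinganine in sphingolipid synthesis, was more negative (-0.75 and -0.80). Without WT mice 1 and 4 only, Nr4a3 (1.51), Tgfb1 (1.30), Junb (0.97), Egr2 (0.92), Nfkb2 (0.89), Ass1 (1.09) and the histone demethylase Kdm6b (1.15) were more positive, and Fdft1 (-0.71) and Msmo1 (-0.69) more negative. Ifng did not pass (0.85 and 0.93, adjusted p = 0.707 and 0.362), with differences without WT mice 1 and 4 of 1.02, 1.75, 3.14, 2.66 and 1.02 at 0h, 2h, 6h, 12h and 24h.

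The values at each time are given for some genes that passed this contrast, so a smaller difference at the other times is in part fixed by that choice. In the fit without WT mice 1 and 4, Nr4a3 differed by -0.46, -0.57, 0.55, 1.42 and 0.12 at 0h, 2h, 6h, 12h and 24h. Fasn differed by -0.57, -0.14, 0.33, 1.22 and -0.05 at the same times. Fdft1 differed by -0.37, 0.06, -0.14, -0.87 and -0.18 and Tgfb1 by -0.40, -0.14, 0.54, 1.32 and 0.07. Against 24h alone, edgeR called 0 genes with all mice (927 at an unadjusted p under 0.05), and 445 were more positive and 76 more negative without WT mice 1 and 4.

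**Figure D5:**
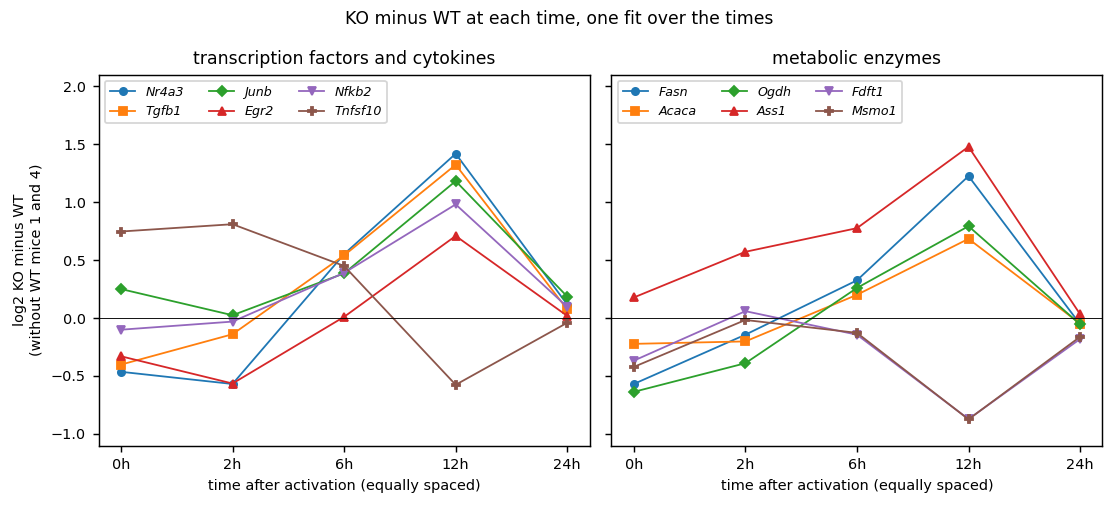
Log2 KO minus WT at each time after activation, from 1 fit over the times without WT mice 1 and 4, for transcription factors and cytokines (left) and metabolic enzymes (right); times are equally spaced and no error is drawn. The 12 genes were chosen among those that passed the contrast of 12h against the other times, and lie farther from 0 at 12h than at 24h.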

How the data were processed

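Per the labels' protocols, the samples described above were sequenced as stranded poly(A) libraries with single-end reads. The build GRCm38, featureCounts 1.4.6, STAR 2.4 and CASAVA 1.8.2 are named in the submitters' processing notes. The annotation release, the strand setting and the handling of reads with several matches are not given in the sources used here, so counts of antisense or near-identical genes are uncertain. The authors deposited raw counts per gene, with no normalization; 21583 of 21647 identifiers matched a GENCODE M21 symbol, and 0 columns were left unmapped.

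Counts were tested with edgeR 4.0.16 (limma 3.58.1, R 4.3.3): TMM factors, filterByExpr (minimum count 10, minimum total 15), robust quasi-likelihood fits and Benjamini-Hochberg adjustment at 0.05. The fits took the 10 libraries of 12h, the 8 without WT mice 1 and 4, and, for the contrast of times, 50 and 40 libraries. GC and length offsets used splines with 4 degrees of freedom, with GENCODE M21 transcripts giving GC content and length. The edgeR fits of the 10 and of the 8 libraries, without offsets, were run on simulated counts with 1 common dispersion. The outcome of these runs is not given here. Fits with offsets or a block and the contrast of times were not simulated. Library totals of 18699720 to 31293872 at 12h set the counting precision. DESeq2 1.42.0, limma-voom, other scalings, filters, a replicate block and fits leaving out 1 library were alternatives.

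Named genes were a subset of the 15 largest differences per direction with at least 5 CPM, the 5 smallest p-values of each of 29 gene lists, and the 5 smallest per direction of the time contrast. The members, lists and rule were chosen with earlier results of these data known. In fits of a single time, p-values measure the spread between mice, 1 library each. Fits over all times without the mouse as a block counted libraries of the same mouse as independent. Their p-values, including those given for genes in the contrast of times, therefore do not measure the spread between mice alone. No pairing of KO and WT mice by number was assumed (correlations of deviations between same-numbered KO and WT libraries -0.289 to 0.145). Whether mice of the same number shared a preparation was not tested. Over times each number is 1 animal within a genotype. The targeted gene and a check of the genotype labels from it are not reported here.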

Additional observations from a re-analysis of the deposited data

Results flagged for a closer look

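At 12h, 1 library lay far from the other 4 of its group (past Dixon's critical value for 5 samples) in 18 of 204 groups of values, where chance gives about 1 in 20. KO mouse 5 was the library in question most often. It was the highest KO library for Il3 (119 CPM), Nfkb1 (1638), Hk2 (228), Oas3 (46) and Jade2 (234), and the lowest for Uqcrh (130) and Sesn1 (30.4). Its summed levels were also the highest in KO for activation transcription factors (10723 CPM), S phase genes (6121) and genes of G2 and mitosis (1307). KO mouse 1 was the highest for Hmgcs1 (274 CPM) and Msmo1 (84.5), and KO mouse 2 the lowest for Srm (513). In WT, mouse 1 was the lowest for Il2 (1.46 CPM) and the highest for Cd28 (906), mouse 2 was the lowest for Cdkn1a (17.9), and mouse 3 was the highest for Slc7a1 (312) and Fyn (485).

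For the following genes KO minus WT at 12h differed from its mean over the other times. The edgeR contrast was that without the mouse as a block, at an adjusted p under 0.05. Values are differences of log2 differences. With all mice these were Fasn (1.33), Acaca (1.09), Cdt1 (1.06), Jade2 (1.00), Rapgef1 (0.896), Ogdh (0.871) and Kdsr (-0.752). Without WT mice 1 and 4, cytokines and transcription factors among them were Nr4a3 (1.51), Tgfb1 (1.30), Nfatc1 (1.27), Ltb (1.02), Junb (0.969), Egr2 (0.924), Nfkb2 (0.891) and Tnfsf10 (-1.07). Enzymes and transporters were Fasn (1.33), Ass1 (1.09), Ogdh (0.998), Slc7a5 (0.919), Srm (0.844), Acaca (0.751), Pfkl (0.652), Shmt2 (0.643), Dlat (0.51), Acly (0.489), Hmgcs1 (-0.41), Mdh1 (-0.663), Msmo1 (-0.691), Fdft1 (-0.714), Kdsr (-0.799) and Sat1 (-0.84). The rest were Crim1 (1.399), Oas3 (1.24), Jade2 (1.20), Kdm6b (1.15), Sesn2 (1.13), Rapgef1 (1.09), Cdt1 (1.04), Sesn1 (-0.616) and Itm2a (-0.883).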

How the results depend on the processing

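Counts are genes called, higher and lower together. With all mice the comparison at 12h called 3439, against 7145 with limma-voom and quality weights, 1740 in the fit over all times, 1440 with the mouse number as a replicate block (907 higher, 533 lower) and 2212 (without KO mouse 5) to 4201 (without WT mouse 1) when 1 library was left out. Without WT mice 1 and 4 it called 6231, against 3045 in the fit over all times, 3659 with the replicate block and 4447 to 6705 when 1 library was left out, the lowest without WT mouse 5. Whether the mouse numbers mark a shared preparation across the genotypes was not tested. The contrast of 12h against the other times called 160 with all mice, against 41 with library totals, 49 with GC and length offsets, 317 with the mouse as a replicate block, 0 against 24h alone and 13 to 624 when 1 mouse was left out, the lowest without WT mouse 2 and the highest without WT mouse 3. Without WT mice 1 and 4 it called 1706, against 521 against 24h alone, 1071 with the offsets and 430 (without WT mouse 5) to 4142 (without WT mouse 3). The cause of these changes was not tested. Other scalings, filters and DESeq2 kept the 12h counts within 1.5 times.

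For the named genes at 12h with all mice, 1396 values kept direction and side of the threshold, 48 lost their call, 7 gained one and 6 changed sign; without WT mice 1 and 4 the numbers were 1274, 29, 4 and 1. The changes of sign were Oas1a with all mice, at -0.05 and at 1.57 with limma-voom, 0.579 with the replicate block and -0.405 to 0.452 when 1 library was left out (0.106 and 0.049 without KO mouse 2 or 4, 0.452 and 0.407 without WT mouse 1 or 4), and Dntt without WT mice 1 and 4, at -0.16 and at -0.395 to 0.133 when 1 library was left out, the highest without WT mouse 2. Counts of reads limit what is said of genes at a few CPM, such as Oas1a.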

Other observations

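Cell cycle and stress genes gave mixed counts at 12h. For comparison, 14.1% of all genes were higher and 15.7% lower with all mice, and 27.0% and 26.4% without WT mice 1 and 4. Of 27 p53 targets and Bcl2 family genes, 4 (14.8%) were higher and 3 (11.1%) lower with all mice and 11 (40.7%) higher and 8 (29.6%) lower without WT mice 1 and 4. With all mice the higher count was 2 without KO mouse 1, 3 or 5 or WT mouse 4. Cdkn1a, the cyclin-dependent kinase inhibitor p21, was at 36.6, 37.4, 59.3, 42 and 72.6 CPM in KO and 27.6, 17.9, 28.4, 27.4 and 26 CPM in WT (0.96, adjusted p = 0.00969, and 1.05, adjusted p = 0.0093). Gadd45b was higher by 1.30 and 1.05. Sesn1, a p53 target that restrains mTORC1, was lower (-1.32 and -0.97), with 30.4 to 43.4 CPM in KO and 67.1 to 163 in WT. Of 40 S phase genes, 4 (10%) were higher and 2 lower with all mice and 11 (27.5%) higher and 5 (12.5%) lower without WT mice 1 and 4, where the higher count was 6 without WT mouse 2 or 5. Cdt1, which licenses replication origins, was at 97.2 to 128 CPM in KO and 48.1 to 85.7 in WT (0.77 and 0.97). Of 35 genes of G2 and mitosis, 2 were lower with all mice, although their median was -1.29, and it was 0.75 without WT mice 1 and 4.

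Of 40 nucleolar genes of ribosome biogenesis, 7 (17.5%) were higher with all mice, and 11 (27.5%) were higher and 13 (32.5%) lower without WT mice 1 and 4. The 7 became 4 without KO mouse 3, 4 or 5 or WT mouse 4, and the 13 became 20 without WT mouse 3 and 8 without WT mouse 5. Their summed level was 9078 CPM in WT mouse 1 and 14180 in WT mouse 4, and 22834 to 25239 in the other 8 libraries. Gar1, Polr1a, Polr1b and Mybbp1a were higher in all 4 fits. Among 24 genes of naive and quiescent T cells, 2 (8.3%) were higher and 3 (12.5%) lower with all mice and 7 (29.2%) higher and 6 (25%) lower without WT mice 1 and 4, with Ccr9, Cdkn1b and Tsc22d3 lower in all 4 fits. Of heat shock chaperones, 4 of 20 (20%) were higher and 3 (15%) lower with all mice and 7 of 21 (33.3%) higher and 7 lower without WT mice 1 and 4, and the 4 higher calls were lost without KO mouse 1, with 1 or 2 left without any other KO mouse or WT mouse 4.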
